A study of Mus musculus with 18 samples.

Results

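The genes described here were counted in every sham MII oocyte library and in none of the NTY MII oocyte libraries. They were selected on the raw counts themselves: a gene was taken when it had 3 or more counts in each of the 3 sham MII libraries and 0 counts in each of the 3 NTY MII libraries. This rule chose 320 of the 53715 genes in the count table. Among the 12338 genes with 3 or more counts in each sham MII library, the share chosen was 2.59%. The difference between sham and NTY MII oocytes is therefore fixed by the choice of the genes, and their MII values are given as a description with no test.

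The 18 bulk RNA libraries come from oocytes of mouse primordial follicles, primary follicles and metaphase II of meiosis (MII). Each stage had 3 sham and 3 NTY libraries from mice of the strain C57Bl/6j x CBA/J, all labelled as in vivo, and neither age nor the meaning of NTY is given in the sources used here. The oocytes from primordial and primary follicles were cut out with a laser, the RNA of several caps was pooled per stage, amplified, and captured for coding RNA, whereas the MII oocytes were collected and sequenced with Smart-seq II. MII and follicle oocytes thus differ in stage and in method at once, the effects of which cannot be told apart, and no MII value was tested against a microdissected one.

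An MII oocyte is transcriptionally silent and lives on RNA stored during its growth, much of which is degraded or translated as meiosis resumes. The transcripts that such a cell holds at a low level may come from earlier stages of growth, from leaky transcription, or from cells that adhere to it at collection. Counting a transcript in a sequencing library requires that a molecule survives extraction and amplification, so that low transcripts are found in some libraries and missed in others.

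The label of the MII libraries was checked first. All 14 genes of an oocyte list (among them Ddx4, Dazl, Zp1, Zp2, Zp3, Gdf9 and Bmp15) were counted in both MII groups. Their summed level was 20798, 19678 and 27549 CPM (counts scaled to the library total) in the sham libraries and 26513, 27336 and 17089 CPM in the NTY libraries. H1f8, the oocyte linker histone, was the most abundant of them. None of the 14 was among the 320 genes.

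The depth of the MII libraries was close between the groups, but the number of genes found was not. Total counts were 9578956, 9978830 and 8898672 in sham and 8733307, 9337884 and 8652089 in NTY. At least 1 count was found for 15442, 18239 and 16142 genes in sham and for 13608, 12926 and 12782 genes in NTY, so that every sham library lay above every NTY library. The gap was below 100 counts. Genes with 1 to 9 counts numbered 3311, 5048 and 3688 in sham against 2181, 1706 and 2071 in NTY, and genes with 10 to 99 counts 5546, 5973 and 5763 against 4740, 4218 and 4561. Genes with 100 or more counts numbered 6585, 7218 and 6691 in sham against 6687, 7002 and 6150, where the groups overlapped. The part that this difference in low counts has in the choice of the 320 genes was not tested. In bulk samples, fewer cells with a transcript and less of it per cell cannot be told apart.

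The opposite rule, 3 or more counts in each NTY MII library and 0 in each sham MII library, chose 1 gene, Lrrtm1, out of 9536. With a minimum of 2, 5 or 10 counts in place of 3, the sham-only genes numbered 406, 217 and 113 and the NTY-only genes 2, 1 and 0. In the whole MII table, edgeR's quasi-likelihood test called 0 of 12209 genes between NTY and sham (0%), with 280 genes at an unadjusted p under 0.05, of which 228 were lower in NTY. DESeq2 called 29 of the same genes, all lower in NTY (0.238%). Of these genes, 102 of the 280 and 19 of the 29 are among the 320 and lower in NTY by the rule itself. The rule used this contrast, and nothing is read from it for single genes of the 320.

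The number depends on each library, because 1 count in any NTY library, or fewer than 3 counts in any sham library, removes a gene. Left out in turn, sham replicates 1, 2 and 3 gave 702, 427 and 620 genes, and NTY replicates 1, 2 and 3 gave 670, 527 and 538. Of these, all but the value without sham replicate 2 exceed 320 by more than 1.5 times. Allowing 1 count in each NTY library gave 381 genes.

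The 320 genes were of low abundance. Their median level over the sham MII libraries was 1.58 CPM, with a range from 0.317 to 11.2 CPM, and this median lay at the 8.75th percentile of the 12338 genes counted in every sham MII library. The other 12018 of those genes had a median of 15.2 CPM. A mean of 1 CPM or more was reached by 247 of the 320, and 5 CPM or more by 12. All together they took 701, 592 and 599 CPM of the sham libraries.

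The share of genes that fit the rule was highest between 0.5 and 1 CPM and fell above. It was 14% of 50 genes below 0.5 CPM, 16.3% of 406 genes between 0.5 and 1 CPM, 12.7% of 1041 genes between 1 and 2 CPM and 6.15% of 1480 genes between 2 and 4 CPM. It dropped to 1.30% of 1764 genes between 4 and 8 CPM, to 1 gene (Clpb) of 1718 between 8 and 16 CPM, and to 0 of 5879 genes at 16 CPM or more. Zeros in single NTY libraries fell throughout, from 47.3% of values in the lowest class to 0.204% in the highest. A count of 0 in an NTY MII library allows up to 3 counts, which is 0.344, 0.321 and 0.347 CPM in replicates 1, 2 and 3. These floors cover counting error only.

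**Figure D1:**
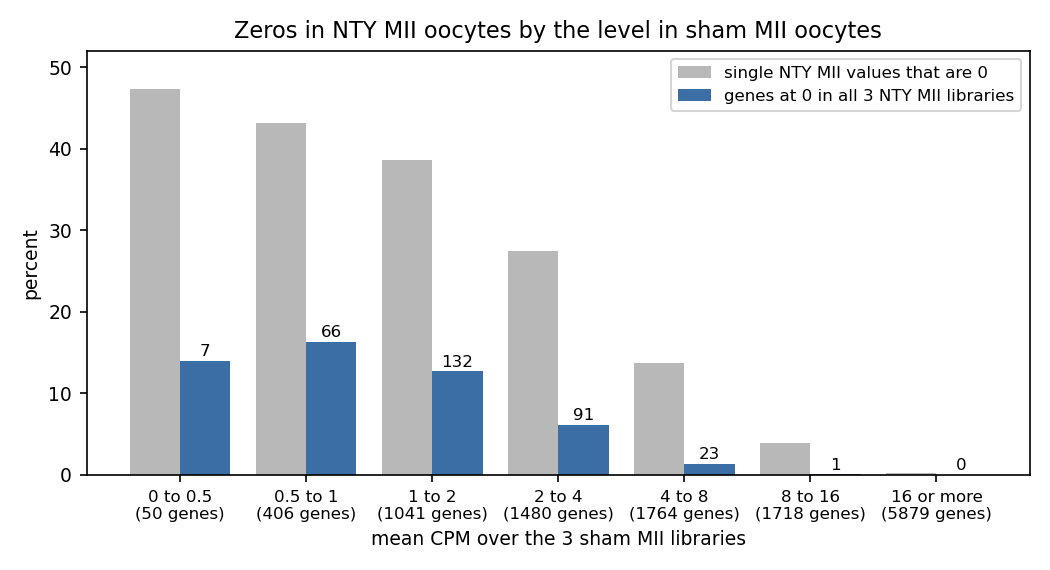
Percent of genes at 0 in NTY MII oocytes (vertical axis) by the mean CPM over the 3 sham MII libraries (horizontal axis), for genes with 3 or more counts in each sham MII library. Grey bars give single NTY values at 0, blue bars genes at 0 in all 3 NTY libraries with their number above, which reaches 132 genes between 1 and 2 CPM and 0 at 16 CPM or more.

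The sham replicates varied widely at these levels. The median coefficient of variation of the 320 genes was 0.544, against 0.499 in 2804 other genes of similar level (within the 5th to 95th percentile of the 320, though with a higher median of 2.25 CPM) and 0.341 in all 12018 others. Sham replicate 1 held the highest CPM for 135 of the genes, replicate 2 for 89 and replicate 3 for 96. The rule asks for counts in every sham library, so these numbers do not measure how far the list rests on 1 library.

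At the lower edge of the rule, 55 of the 320 genes had exactly 3 counts in their lowest sham library. Trp53rka, for example, had 47, 11 and 3 counts, and Slc39a3, a zinc importer, had 41, 3 and 8. 2700097O09Rik had 3, 72 and 20 counts, Gm35549 had 39, 13 and 3, and Gm43672 had 38, 3 and 5. All 5 genes rested on 1 or 2 well counted libraries.

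Just outside the rule lay 78 genes with 2 counts in 1 sham library and otherwise the same pattern. Ldha, the muscle-type lactate dehydrogenase subunit, had 14, 2 and 93 counts in sham and 0 in each NTY library. Tubgcp3, a subunit of the gamma-tubulin ring complex, had 48, 35 and 2. Abt1 had 2, 18 and 48 counts and Gm47583 had 47, 16 and 2. Another 50 genes missed the rule by 1 count in 1 NTY library. Top3a, a DNA topoisomerase, had 46, 73 and 70 counts in sham and 0, 0 and 1 in NTY, which is a better counted gene than most of those chosen. Pnpla1 had 26, 30 and 88 counts against 1, 0 and 0, and Pld3 had 72, 41 and 31 against 0, 0 and 1. Rcc1l had 96, 17 and 19 counts against 1, 0 and 0, and Kbtbd12 had 60, 32 and 38 against 1, 0 and 0.

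By gene type, 228 of the 320 genes were protein coding (71.3%), 66 were long non-coding RNAs (20.6%) and 20 were pseudogenes (6.25%). Another 3 were transcripts still to be experimentally checked, 1 was a small nuclear RNA gene (Gm24871), and 2 identifiers were not in GENCODE M21. The counts of 1 of the latter equal those of Wdr74 in all 18 libraries, so these 2 members are not independent. Among all 12338 genes counted in every sham MII library, 82.6% were protein coding, 11.6% long non-coding and 3.19% pseudogenes. The 2804 other genes of similar level were protein coding in 63.9% of cases, so the makeup of the 320 lay between those of low genes and of all genes. Of the long non-coding RNAs, 37 were intergenic and 17 antisense to another gene, and 17 of the pseudogenes were processed copies of an mRNA. The median exon length was 3040 bases, against 2578 bases for the genes of similar level and 4052 for all others.

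Uninformative names were frequent. Symbols beginning with Gm belonged to 70 of the genes (21.9%, against 14.1% of genes counted in every sham MII library), and symbols ending in Rik to 23 (7.19%, against 4.13%). Neither share was taken over the genes of similar level, which were less often protein coding, so whether low genes in general share this is not known. Zinc finger genes of the Zfp series were 6 (1.88%, against 1.90%), and solute carriers 8 (2.5%, against 1.36%). Of 26 olfactory receptor genes counted in sham MII oocytes 1 was chosen (Olfr701), and of 10 vomeronasal receptor genes 1 (Vmn1r35, with 23, 13 and 39 counts). Such receptor families and processed pseudogenes have near-identical copies in the genome, and how reads that match several copies were counted is not given in the sources used here, so their values are uncertain.

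All chromosomes but Y and the mitochondrial one held some of the genes. Chromosome 7 held the most, 37 genes or 11.6%, where 7.40% of the genes counted in every sham MII library lie. The X chromosome held 8 (2.5%, against 3.00%) and chromosome 18 held 3 (0.938%, against 2.50%).

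The leading genes by level are described next, in groups by what they are known to do. Genes outside the naming rule in processing, which are used below as examples of a function, were chosen after their values were seen. The groups rest on no fixed list unless one is named, and none was tested for enrichment. Clpb, a disaggregase that keeps proteins soluble in the mitochondrial intermembrane space, had 129, 75 and 111 counts in the 3 sham libraries, 11.2 ± 3.19 CPM (SD, n = 3). It was the 1 gene of the list above 8 CPM. No fold over NTY is given for the listed genes in MII oocytes, since the rule fixed its direction. Slc25a30, a carrier of the inner mitochondrial membrane, had 67, 38 and 63 counts. In the matching NTY libraries both genes were at 0, as were all genes of the list by definition.

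Several leading genes encode membrane receptors and adhesion proteins. Epha10, an Eph family receptor without kinase activity, had 70, 87 and 57 counts (7.48 ± 1.17 CPM, SD, n = 3). Adgre4, an adhesion G protein-coupled receptor known from macrophages, had 65, 102 and 45 counts. Sele, the E-selectin by which activated endothelium holds leukocytes, had 51, 38 and 34. In these 3 genes no sham library held under 34 counts. Perp, a desmosome protein induced by p53, had 36, 55 and 38 counts.

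Genes of the extracellular matrix were also present. Col14a1, a collagen that sits on the surface of fibrils, had 32, 20 and 69 counts, and Kera, a corneal keratan sulfate proteoglycan, had 59, 40 and 22. Dcn, the related proteoglycan decorin and a gene of the theca and stroma list, had 25, 18 and 3. Emilin3, Vit, Nid1 and Fbn1, which also encode matrix proteins, were in the list too. Matrix genes are textbook products of stromal cells, and the other stroma markers are given further on.

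Lipid and amide metabolism was represented by Naaa, the lysosomal amidase of N-acylethanolamines, with 42, 78 and 49 counts. Abhd12, a lipase of lysophosphatidylserine, had 71, 37 and 44 counts. Scd3, a stearoyl-CoA desaturase, had 28, 45 and 37, and Tdo2, which opens the ring of tryptophan in the liver, had 50, 49 and 18. In each of these 4 genes every sham library held 18 or more counts.

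The list also held transcription factors of development. Tead1, the DNA-binding partner of YAP in the Hippo pathway, had 70, 23 and 39 counts. Prox1, a homeobox factor of lymphatic endothelium and liver, had 23, 55 and 40, and Rarb, a retinoic acid receptor, had 29, 49 and 31. Mecom, Nr2f2, Gsc and E2f7 were in the list at 2.86, 0.709, 0.696 and 2.18 CPM. Transcription factors are often of low abundance, and length also bears on the count, so these levels are not ranked against each other.

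Some genes of the list encode parts of motile cilia and sperm tails. Ccdc65, a component of the nexin-dynein regulatory complex, had 59, 56 and 43 counts, among the most even of the list (5.53 ± 0.667 CPM, SD, n = 3). Dnaic1, an intermediate chain of axonemal dynein, had 12, 20 and 11. Ccdc40, needed to assemble inner dynein arms, had 16, 3 and 10, and Odf3l2, named for the outer dense fibre of sperm, had 22, 12 and 15. None of these 4 was counted in any of the 12 microdissected libraries. The list of 10 sperm and spermatid markers had no gene among the 320.

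The germline genes Tdrd6, a Tudor protein of the chromatoid body, and Pnldc1, the trimmer of piRNA ends, had 49, 35 and 14 and 21, 10 and 13 counts. Pnldc1 belongs to the piRNA pathway, which silences transposons in germ cells.

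Some genes of immune signalling were also in the list, while the list of 10 leukocyte markers had no gene among the 320. The neighbouring chemokine genes Ccl3 and Ccl4 had 5, 8 and 12 and 14, 4 and 11 counts, and Cd40, a receptor of the tumour necrosis factor family, had 17, 4 and 7. Il31 had 21, 3 and 16. Serpinb9, an inhibitor of granzyme B, was the best counted of this group, with 35, 56 and 40. Of the genes named here, all but Serpinb9 were at 0 in every microdissected library, as were 34.1% of the 320.

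Among the remaining 20 best counted genes, D3Ertd751e, without an established function, had 91, 56 and 52 counts and C2cd2, a C2 domain protein, had 92, 49 and 32. Pcp4l1, a small protein with an IQ motif, had 10, 89 and 48, and Gorab, a golgin, had 31, 37 and 67. Abcg3, an ABC transporter, had 26, 14 and 75. In each of the last 3 genes the highest sham library held more than 2 times the counts of the lowest. Of non-coding genes, Gm10790 had 65, 96 and 46 counts and the X-linked Gm14812 had 53, 63 and 62.

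**Figure D2:**
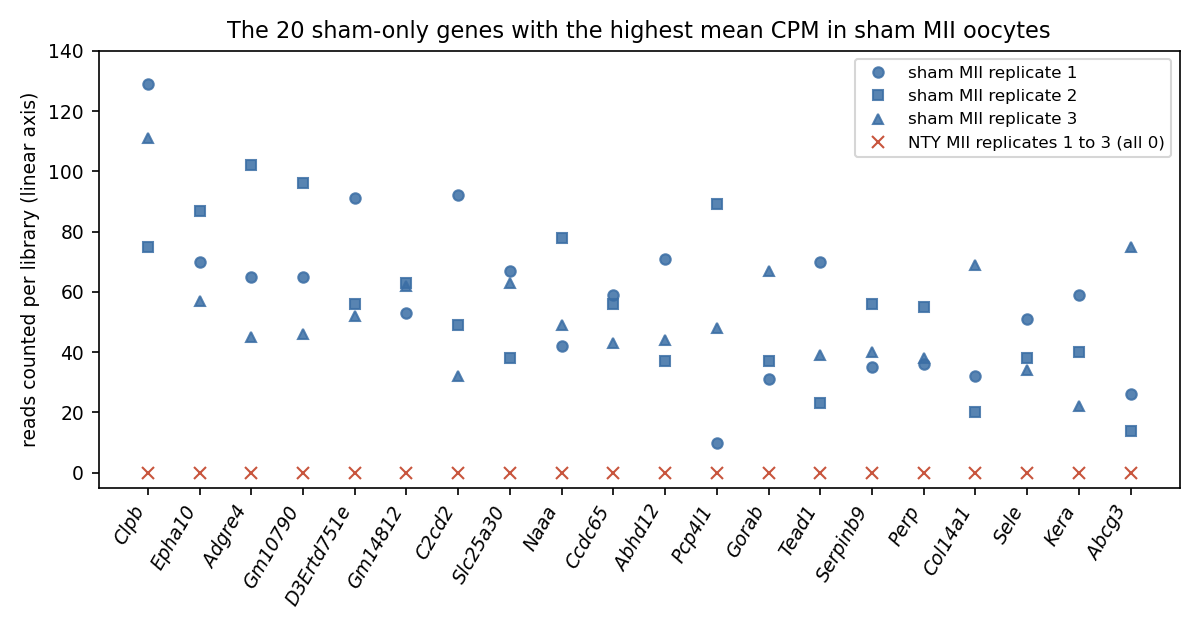
Reads counted per library (vertical axis, linear) for the 20 sham-only genes with the highest mean CPM in sham MII oocytes (horizontal axis). Blue symbols are the 3 sham MII libraries and red crosses the 3 NTY MII libraries, all at 0, and Clpb leads with 129, 75 and 111 counts.

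Per length, the order changed. In TPM, a level scaled by transcript length, the highest means over the sham MII libraries were 19.6 for the pseudogene Gm48698 (25, 14 and 20 counts) and 11.2 for the pseudogene Gm6983 (42, 11 and 26 counts). Gm24871, a small nuclear RNA gene, came to 10.5 TPM from only 4, 3 and 6 counts, because it is short, and all its exon bases lie in B930036N10Rik on the same strand. Leaving out the 20 genes best counted by CPM, Gm9057, Gm28404, Gm49233, Gm19412, Gm49500, Gm18327 and Gm8451 followed between 9.79 and 7.65 TPM. Of those 20 genes Gm10790, Gm14812 and Pcp4l1 lay in the same range, at 9.66, 9.19 and 8.95 TPM. Gm6983, Gm49500 and Gm19412 share 94.7%, 94.0% and 89.7% of their exon bases with genes on the opposite strand. All 10 genes that this order added are pseudogenes, long non-coding RNAs or small RNA genes, and 6 of them are pseudogenes. Of the 314 members with a TPM value, 220 reached 1 TPM in sham MII oocytes (70.1%) and 3 reached 10 TPM.

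Some of the genes lie beside or across each other. There were 17 pairs whose gene bodies overlap or whose starts are within 100 kb. Prox1 (chr1:190118035-190170714, minus strand, mm10) and its antisense transcript Prox1os (chr1:190170296-190217276, plus strand) are a divergent pair, with 22, 6 and 10 counts for Prox1os. They share 133 exon bases, and since the strand setting of the counting is not given in the sources used here, reads of such partners cannot be told apart. Arhgap4 and Naa10, on the same strand of the X chromosome, share 480 exon bases.

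Their counts in the microdissected libraries were nearly the same, at 0, 4136 and 672 for Arhgap4 and 0, 4161 and 672 for Naa10 in primordial sham. In primordial NTY replicate 2 they differed, with 1 count for Arhgap4 and 251 for Naa10. The pair is thus at most partly independent. Gm27027 shares 461 exon bases with its neighbours Alkbh3 and Gm13889, or 84.3% of its exons.

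Other overlapping pairs were Cped1 with Gm26719, Aldh1l1 with Gm45901, Zfp775 with Gm38804, Yif1b with 2200002D01Rik, BC025920 with Gm26896 and Il17b with Gm38165. Neighbours without overlap were Klk13 and Klk14, which are kallikrein proteases, Ccl3 and Ccl4, Mettl18 and Sele, Tie1 and 2610528J11Rik, and Bloc1s2 and Scd3. The remaining neighbours were Ptprh and Hspbp1, A030001D20Rik and Sec1, and C2cd2l and Slc37a4. In all, 104 of the 318 annotated genes share exon bases with another gene, 82 of these only on the opposite strand, and 11 share more than 50% of their exon bases.

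Markers of other cells that could adhere to a collected oocyte had overlapping summed levels in the MII groups, but in most lists fewer of them were found in NTY. At least 1 count was found in sham and in NTY for 10 and 8 granulosa genes, 5 and 2 theca and stroma genes, 6 and 3 endothelial genes, 5 and 2 leukocyte genes and 7 and 5 epithelial genes. For cumulus expansion it was 2 and 1 genes, for erythrocytes 3 and 2, and for sperm and spermatids 5 and 5. All genes with a count were also fewer in NTY, with a mean of 13105 per library against 16608 in sham. The part of such cells in the choice of the 320 genes was not tested. The 10 theca and stroma genes summed to 2.82, 7.82 and 4.38 CPM in sham and to 7.10, 0 and 6.47 CPM in NTY. Their most abundant gene in MII oocytes was Hsd3b1, and Col1a2, Col3a1, Lum, Cyp17a1 and Tcf21 were at 0 in every sham and NTY MII library. Of this list, Dcn alone was among the 320. The 14 cumulus and granulosa genes summed to 98.5, 137 and 185 CPM in sham and to 107, 188 and 153 CPM in NTY, led by Esr2, with Amhr2, Foxl2, Fst and Wt1 at 0 in all 6 libraries. The 10 cumulus expansion genes summed to 4.59, 0.802 and 0 CPM in sham and to 0, 0 and 1.73 CPM in NTY. None of these 24 genes was among the 320.

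The 8 endothelial genes summed to 132, 175 and 143 CPM in sham and to 153, 143 and 109 CPM in NTY, mostly from Pecam1, while Cdh5 and Emcn were at 0 in all 6. Tie1, an endothelial receptor, was the gene of that list among the 320, with 42, 8 and 34 counts. The 10 leukocyte genes summed to 23.2, 28.7 and 20.8 CPM in sham and to 49.9, 24.5 and 15.7 CPM in NTY, led by Csf1r, with Ptprc, Adgre1, Itgam, Lyz2 and S100a8 at 0 throughout. The 10 genes of oviduct and surface epithelium summed to 295, 251 and 278 CPM in sham and to 229, 330 and 308 CPM in NTY, led by Cdh1, with Krt19, Krt7 and Pax8 at 0.

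For erythrocytes, 8 genes summed to 2.09, 10.4 and 6.52 CPM in sham and to 0.229, 13.4 and 13.5 CPM in NTY, led by Epb42, and both beta-globin genes were at 0. For sperm and spermatids, 10 genes summed to 125, 210 and 172 CPM in sham and to 157, 233 and 233 CPM in NTY, led by Odf2, and Prm1, Tnp1, Tnp2, Smcp and Spem1 were at 0. The groups overlapped for each of these lists. The 10 targets of NRF2, the regulator of the oxidative stress response, summed to 659, 978 and 1015 CPM in sham and to 905, 1003 and 688 CPM in NTY, with none among the 320. Of 10 broadly expressed genes, Tuba1b alone was among them, and the list summed to 395, 409 and 481 CPM in sham and to 456, 432 and 346 CPM in NTY.

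The 12 microdissected libraries were not used by the rule. They held between 15149564 and 29205503 counts. Their label was checked with the same oocyte list, which summed to 210, 1410 and 618 CPM in primordial sham, to 257, 497 and 3.96 CPM in primordial NTY, to 980, 399 and 498 CPM in primary sham and to 777, 214 and 888 CPM in primary NTY. Primordial NTY replicate 3 stands apart, with 8 of the 14 oocyte genes counted and a sum of 3.96 CPM, which goes against its label. In primordial sham replicate 1 and primary NTY replicate 1, 10 of the 14 were counted, and 11 in primordial NTY replicate 1. Bmp15, Oosp1 and Mos were at 0 in these 3 libraries, and most of the oocyte counts came from Zp1 in the first, from Kit and Dazl in the second and from Kit in the last. The theca and stroma list came to 1467, 1376 and 8092 CPM in primordial sham and to 4820, 2828 and 12988 CPM in primordial NTY. In primary follicles it came to 2431, 5191 and 2643 CPM in sham and to 17987, 4126 and 2290 CPM in NTY. The labels of primary NTY replicates 2 and 3 carry nearly the same code, so these may share material, and whether stages share animals is not known. The cumulus and granulosa list lay between 779 and 5010 CPM. These 2 lists together exceeded the oocyte list in each of the 12 libraries, so the cuts hold RNA of surrounding cells too, and the part of those cells in the values below was not tested.

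Of the 320 genes, 211 were counted in at least 1 microdissected library and 109 (34.1%) in none. The genes of similar level in sham MII oocytes were at 0 in all 12 libraries in 33.0% of cases, and all 12018 other genes in 14.7%. In this share the 320 genes lay close to other low genes of sham MII oocytes, though the shares by gene type, given below, differed. By library, 52, 81 and 96 of them had a count in primordial sham, 111, 130 and 56 in primordial NTY, 141, 102 and 151 in primary sham and 96, 69 and 108 in primary NTY. The number of all genes counted had a similar course, at 6147, 9229 and 9852, then 10493, 12461 and 6524, then 12955, 10565 and 13755, and 10255, 7474 and 9611. The most of the 320 were found in the library with the most genes, primary sham replicate 3, and the fewest in the library with the fewest, primordial sham replicate 1.

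**Figure D3:**
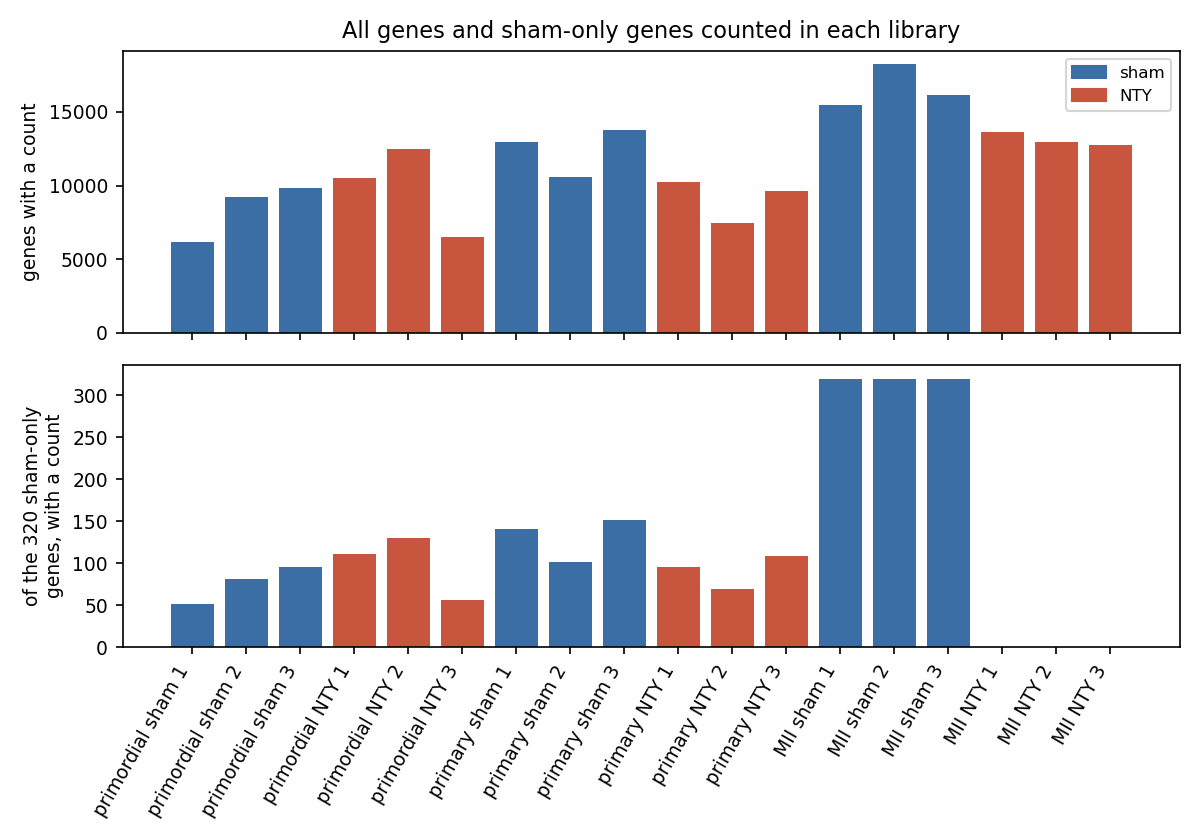
Genes with at least 1 count (upper axis) and number of the 320 sham-only genes with at least 1 count (lower axis) in each of the 18 libraries, blue for sham and red for NTY. The 320 genes are at 320 in sham MII and 0 in NTY MII by the rule, and between 52 and 151 in the microdissected libraries.

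Counting in the microdissected libraries differed by gene type. At 0 in all 12 were 53 of the 228 protein-coding genes (23.2%), 40 of the 66 long non-coding RNAs (60.6%) and 14 of the 20 pseudogenes (70%). In genes of similar level these shares were 16.7%, 69.8% and 51.3%. The capture of coding RNA in these libraries moves with gene type, so the type of gene and the method cannot be told apart here. The 109 genes at 0 also had shorter transcripts, with a median of 1717 bases for the longest transcript against 2998 bases for the genes counted, and a lower GC content of 47.2% against 50.8%. In genes of similar level the medians were 1283 and 2675 bases and 47.8% and 50.3%.

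The genes at 0 in all 12 libraries include well counted ones. Adgre4, Gm10790, Ccdc65, Sele, Kera and Abcg3, all among the 20 leading genes, had no count in any of the 12. Their sham MII levels were 7.35, 7.19, 5.53, 4.32, 4.21 and 4.18 CPM. Epha10, the second gene by level, had 0, 0 and 0 counts in primordial sham, 0, 1 and 0 in primordial NTY, 3, 0 and 6 in primary sham and 0, 0 and 0 in primary NTY.

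At the other end, 16 genes were counted in all 12 microdissected libraries and 124 reached 100 or more counts in at least 1 of them (38.8%, against 39.5% of genes of similar level). The group means of the 314 genes with a TPM value reached 1 TPM for 71 genes in primordial sham, 80 in primordial NTY, 107 in primary sham and 66 in primary NTY. These are 22.6%, 25.5%, 34.1% and 21.02%, against 26.8%, 29.7%, 35.6% and 27.2% of all 28252 genes with TPM. The summed level of the 320 genes was between 2971 and 10641 CPM in the microdissected libraries, and Tuba1b, Fbn1, Nr2f2 and Igfbp5 made 55.3% of it over the 12 libraries.

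Tuba1b, an alpha-tubulin, was the most abundant. It had 10, 8 and 4 counts in the sham MII libraries, but 2, 35135 and 11011 in primordial sham, 52082, 50077 and 35407 in primordial NTY, 20349, 43996 and 65974 in primary sham and 58111, 34608 and 16585 in primary NTY. Primordial sham replicate 1 stands out with 2 counts. Tuba1b shares exon bases with other annotated genes and resembles other tubulin genes, so its counts are uncertain. Every NTY library lay above every sham library in primordial follicles, and the groups overlapped in primary follicles. The log2 fold change of NTY against sham was 1.78 ± 1.25 (SE) in primordial and 0.20 ± 1.22 in primary follicles, with adjusted p of 0.648 and 1.00 by edgeR.

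Fbn1, the fibrillin of elastic microfibrils, had 12, 7 and 11 counts in sham MII oocytes. Primordial sham held 6762, 10345 and 33042 counts of it, and primordial NTY 26514, 13834 and 8896, which overlapped. In primary follicles it had 5359, 4562 and 7350 counts in sham and 22389, 74862 and 19832 in NTY. There every NTY library lay above every sham library. The log2 fold change was 3.36 ± 1.29 (SE) in primary follicles, with an adjusted p of 0.4997 by edgeR, and -0.12 ± 1.18 in primordial follicles, with an adjusted p of 0.993. The latter sign turned under another normalization.

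Nr2f2, a nuclear receptor of stromal cells, had 3, 8 and 9 counts in sham MII oocytes. Its counts were 39, 10145 and 33541 in primordial sham, 3269, 7843 and 43270 in primordial NTY, then 6713, 11669 and 8886 in primary sham and 9662, 24961 and 6336 in primary NTY. The groups overlapped at both stages, with log2 fold changes of 0.61 ± 1.45 (SE) and 1.09 ± 1.46 and adjusted p of 0.951 and 1.00 by edgeR.

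Igfbp5, a binding protein of insulin-like growth factors, had 13, 20 and 27 counts in sham MII oocytes. It had 2335, 17291 and 4303 in primordial sham, 13726, 15343 and 21176 in primordial NTY, 9501, 27625 and 5892 in primary sham and 22370, 1641 and 454 in primary NTY. Its log2 fold changes were 1.30 ± 1.499 (SE) and -0.59 ± 1.48, with adjusted p of 0.846 and 1.00 by edgeR. The groups overlapped at both stages.

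Other genes of the 10 most abundant were dominated by single libraries. Tead1 had 38242 counts in primary NTY replicate 2, where the other 11 libraries held between 13 and 4322. Its log2 fold changes were -0.77 ± 1.96 (SE) in primordial and 3.59 ± 2.16 in primary follicles. Atxn7l1, a subunit of the SAGA complex by its homology, had 40257 counts in the same library against 0 in primary sham replicate 2, with log2 fold changes of 0.38 ± 2.11 and 4.63 ± 2.45, the former of which turned to -0.34 with RLE normalization and with DESeq2. Creb1, the cyclic AMP response factor, had 12838 counts there and 0 in both primordial sham replicate 1 and primordial NTY replicate 3, with -1.68 ± 2.49 and 3.52 ± 2.68. Adjusted p of these 3 genes lay between 0.675 and 0.985 by edgeR.

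The remaining genes of that set had small differences for their spread. Nid1, the basement membrane protein nidogen, had log2 fold changes of -0.89 ± 2.28 (SE) and 0.65 ± 2.27, Mtch1, a protein of the outer mitochondrial membrane, of -0.06 ± 2.20 and 0.33 ± 2.20, and Gm49320 of 0.46 ± 2.07 and 0.72 ± 2.08, first for primordial and then for primary follicles. With a replicate block the signs turned for Mtch1 at both stages, to 0.31 and -0.10, and for Gm49320 in primordial follicles, to -0.18. Gm49320 was counted in all 12 libraries, from 323 to 12209 counts, but all its exon bases lie in exons of Map2k7 and Tgfbr3l on the same strand, whose reads cannot be told apart from its own.

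Clpb, which led in MII oocytes, was counted in 11 of the 12 libraries. It had 9289, 34 and 1082 counts in primordial sham, 8, 1599 and 179 in primordial NTY, 2271, 735 and 841 in primary sham and 234, 0 and 497 in primary NTY. In primary follicles every sham library lay above every NTY library. The log2 fold change was -3.24 ± 2.79 (SE) in primordial and -2.05 ± 2.65 in primary follicles, with adjusted p of 0.741 and 1.00 by edgeR. Dcn was counted in all 12, from 6 to 2261 counts, with -0.57 ± 2.75 and 1.75 ± 2.82.

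**Figure D4:**
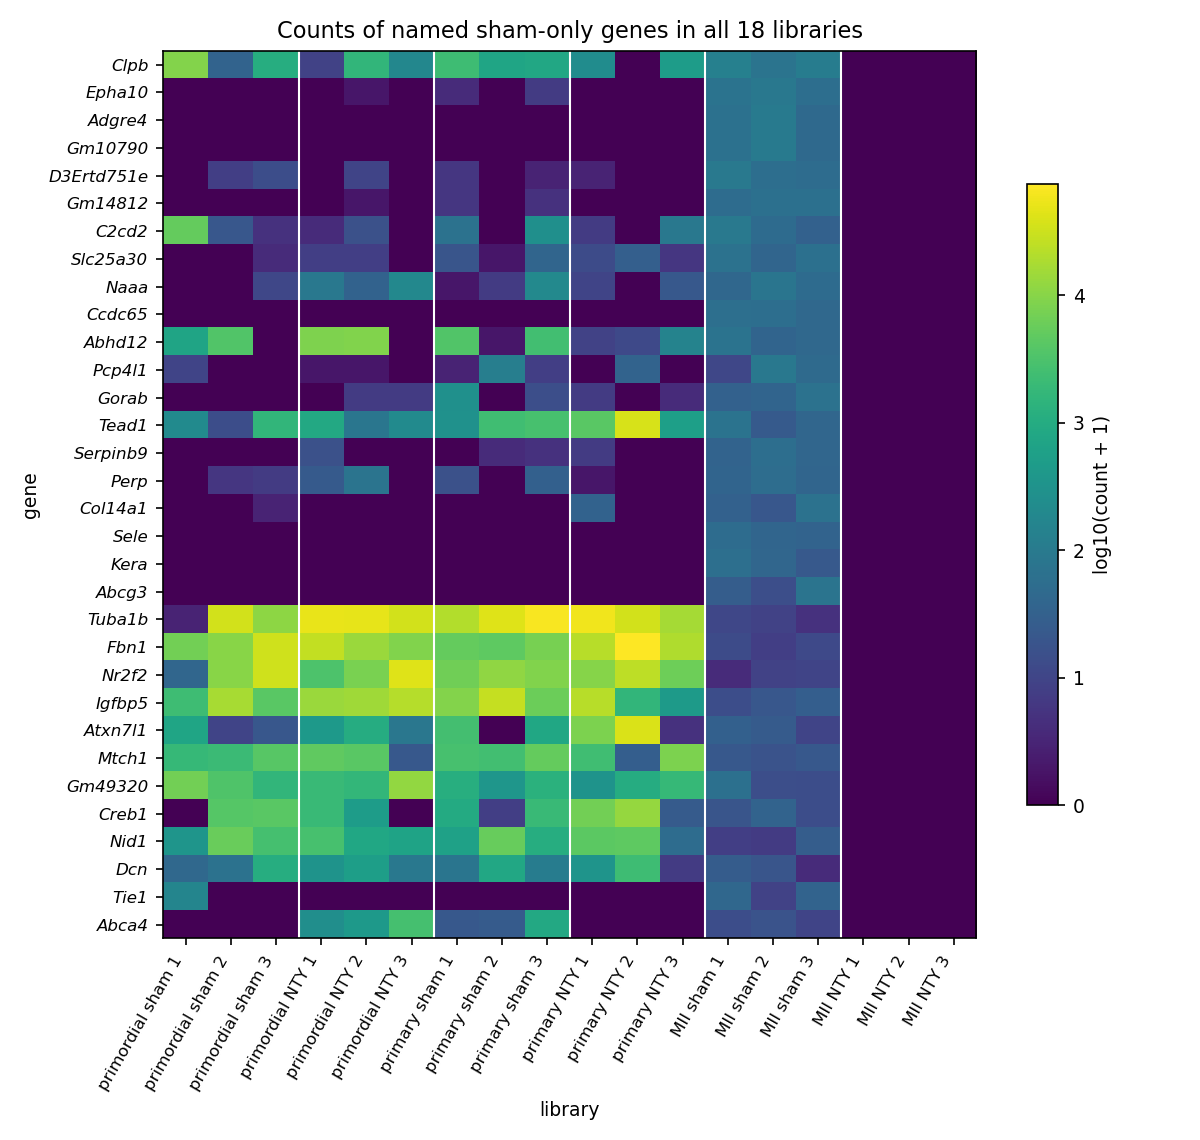
Counts of named sham-only genes (rows) in all 18 libraries (columns), as log10(count + 1) on the colour scale, with white lines between the 6 groups. Adgre4, Gm10790, Ccdc65, Sele, Kera and Abcg3 are at 0 in all 12 microdissected libraries, while Fbn1 is high there and low in sham MII oocytes.

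Of the 320 genes, 108 passed the filter on low counts in the fit of the 12 microdissected libraries and 212 did not. In oocytes from primordial follicles, edgeR called 0 of the 108 between NTY and sham, where it called 1 of all 10522 genes tested (0.0095%). At an unadjusted p under 0.05 there were 17 of the 108 (15.7%) and 1145 of all genes (10.9%), of which 804 were higher in NTY. DESeq2 called 17 of the 108 (15.7%) and 1213 of all genes (11.5%). The median log2 fold change of the 108 was 0.22 and that of all genes 0.12, or 1.05 and 0.39 with a replicate block. With only the 2 groups compared, the medians of the sham-only and of all genes tested were 0.36 and -0.04. With any count as the filter both were 0. Without primordial NTY replicate 3, whose oocyte markers were near 0, edgeR called 0 of 127 and 0 of 11746 genes, with 18 and 1145 at an unadjusted p under 0.05. The median log2 fold changes were then 0.54 and 0.01. With each library left out in turn, the median of the 108 or more genes tested ranged from 0 without NTY replicate 2 to 2.36 without sham replicate 3. That of all genes ranged from -0.42 to 1.00 without the same libraries.

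In oocytes from primary follicles, edgeR called 0 of the 108 genes and 0 of all 10522 (0%). At an unadjusted p under 0.05 there were 13 of the 108 (12.04%) and 858 of all genes (8.15%), and of the 858 genes 782 were lower in NTY. DESeq2 called 9 of the 108 (8.33%) and 703 of all genes (6.68%). The median log2 fold change was -0.76 for the 108 and -0.10 for all genes, but with RLE normalization the latter turned to 0.19 and the former was -0.43. With a replicate block the medians of the sham-only and of all genes tested were -1.18 and -0.75. They were -0.37 and 0.12 with only the 2 groups compared, and -1.10 and -0.29 with any count as the filter. With single libraries left out, the median of the sham-only genes ranged from -0.13 without sham replicate 3 to -2.08 without NTY replicate 1, and that of all genes was 0 and -1.05 without these libraries. The p-values measure only the spread between these libraries, since nothing in the labels says that they came from separate animals.

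The same rule applied within the microdissected groups gave other genes. It chose 11 genes as counted only in sham and 66 as counted only in NTY oocytes from primordial follicles, and 239 and 1 in oocytes from primary follicles. Sham-only genes of primary follicles that are also among the 320 were Abca4, Ankrd54, Dgcr6, Ttl and 2810039B14Rik, 2.09% of the 239 and 1.56% of the 320. Of the genes of similar level in sham MII oocytes 1.14% were sham-only in primary follicles, and of all 12338 genes 1.24%. The sham-only genes of primordial follicles shared 2210016F16Rik with the 320, 9.09% of the 11 and 0.313% of the 320, against 0.0357% of genes of similar level and 0.0648% of all 12338. The NTY-only genes of primordial follicles shared Abca4, Impad1 and Pgls, 4.55% of the 66 and 0.938% of the 320, against 0.178% of genes of similar level and 0.276% of all 12338.

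Ttl, the tubulin tyrosine ligase, had 12, 28 and 17 counts in sham MII oocytes, and 325, 10 and 178 in primary sham against 0 in each primary NTY library. That is at least 55.9-fold higher in sham against a floor of 3 counts per library, or 31.2-fold without sham replicate 1. Ankrd54 had 307, 8 and 134 counts in primary sham against 0, at least 48.9-fold higher, or 23.6-fold without sham replicate 1. Dgcr6, of the region deleted in DiGeorge syndrome, had 24, 89 and 224 against 0, at least 37.5-fold higher, or 19.2-fold without sham replicate 3. These genes were picked for counts in sham alone, which fixes the direction of the folds, and the floor covers counting error only. By edgeR the adjusted p of Ttl, Ankrd54 and Dgcr6 in primary follicles were 0.4997, 0.4997 and 0.503. In primordial follicles Ankrd54 was also counted in sham alone, with 0, 23 and 7 counts. The other 2 were counted in both groups there, Ttl with 89, 3 and 0 counts in sham and 3, 31 and 0 in NTY, and Dgcr6 with 0, 675 and 0 and 83, 437 and 0.

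In the opposite direction, Impad1, a Golgi nucleotidase, had 0 counts in each primordial sham library and 78, 1342 and 8202 in primordial NTY. It was at least 613-fold higher in NTY by the floor, but at least 153-fold without NTY replicate 3, the library whose oocyte markers were near 0. It had 15, 14 and 18 counts in sham MII oocytes. In primary follicles it had 328, 7 and 193 counts in sham and 2917, 1 and 1740 in NTY, which overlapped. Pgls, an enzyme of the pentose phosphate pathway, was at 0 in primordial sham but had 72, 5 and 21 counts in NTY, at least 7.01-fold higher, or 2.50-fold without NTY replicate 1. 2210016F16Rik had 71, 5 and 52 counts in primordial sham and 0 in NTY. These genes too were picked for counts in 1 group alone, which fixes the direction of the folds. By edgeR the adjusted p of Impad1, Pgls and 2210016F16Rik in primordial follicles were 0.405, 0.409 and 0.405.

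Over the list, counting was more frequent in NTY at the primordial stage and in sham at the primary stage. In primordial follicles 81 of the 320 genes had a count in more NTY than sham libraries (25.3%) and 29 in more sham libraries (9.06%), and in genes of similar level these shares were 23.8% and 11.4%. In primary follicles 27 genes had a count in more NTY libraries (8.44%) and 110 in more sham libraries (34.4%), against 6.21% and 33.6% in genes of similar level. In these shares the genes chosen in MII oocytes lay close to other low genes at both stages. In primordial follicles every NTY library lay above every sham library for 4.69% of the 320, against 2.64% of genes of similar level. The reverse held for 0.313% against 1.03%. In primary follicles these shares were 0.625% against 0.499% and 5% against 6.17%. These differences were not tested.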

How the data were processed

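The authors deposited gene counts, whole numbers that were not normalized, and TPM for 28252 of the genes. The submitters' processing notes name Trim Galore 0.4.1, TopHat2, featureCounts and mm10, with no role given. Groups came from the labels. CPM are counts scaled to the library total. Gene types and coordinates came from GENCODE M21, which held 318 of the 320 genes. Genes were tested in R 4.3.3 by quasi-likelihood with edgeR 4.0.16 (robust, TMM, filterByExpr by group, adjusted p under 0.05 after Benjamini and Hochberg). The 12 microdissected libraries shared a fit and the 6 MII libraries were fitted alone. The edgeR fits were tested on simulated data. The spread set there lay below that estimated for the 12 microdissected libraries, so the simulation does not cover that fit at its own spread. Tables were made with Python 3.11.15, pandas 2.3.3 and numpy 2.4.6.

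Genes were named if they were among the 20 highest in mean CPM or the next 10 in mean TPM over sham MII, the 10 highest in the microdissected libraries, called there, on a list, in a pair, or at the threshold (up to 5 of each kind). Also named, by their values, were genes counted in 1 group alone at a follicle stage, or with NTY above sham at 1 stage and below at the other. The members and lists were chosen with earlier results of these data known. Alternatives were RLE normalization, DESeq2 1.42.0, a filter on any count, a replicate block, only the groups compared, leaving out each replicate, and other count minimums.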

Additional observations from a re-analysis of the deposited data

Results flagged for a closer look

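By CPM, every NTY library lay above the sham libraries in primordial follicles and below them in primary follicles for 4 of the 320 genes (1.25%), against 0.357% of genes of similar level and 0.389% of all 12338. Of these 4, Chm had too few counts to be tested. Abca4, a retinal lipid transporter, had 0 counts in each primordial sham library and 254, 433 and 2738 in primordial NTY, at least 220-fold higher in NTY against a floor of 3 counts per library, or 74.7-fold without NTY replicate 3, whose oocyte markers were near 0. In primary follicles it had 21, 24 and 880 counts in sham and 0 in each NTY library, at least 102-fold higher in sham, or 7.53-fold without sham replicate 3. Abca4 was picked for this pattern, which fixes the direction of both folds. By edgeR its adjusted p for NTY against sham was 0.405 in primordial and 0.4997 in primary follicles. The test of the difference between the stages by edgeR gave an adjusted p of 0.153, where 1 of 10522 genes passed (0.0095%). Of the 108 sham-only genes tested 0 passed, with 18 at an unadjusted p under 0.05 (16.7%, against 11.8% of all genes), and DESeq2 was not used for this difference.

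Enpep, a membrane aminopeptidase, had 0, 1 and 2 counts in primordial sham, 1365, 990 and 95 in primordial NTY, 997, 7 and 20 in primary sham and 4, 1 and 1 in primary NTY, and an adjusted p of 0.177 for the difference by edgeR. Cblb, a ubiquitin ligase, had 6, 168 and 83 counts in primordial sham, 829, 1361 and 167 in primordial NTY, 1054, 38 and 214 in primary sham and 10, 38 and 10 in primary NTY, and an adjusted p of 0.567. Its raw counts overlap or tie at both stages, and the libraries part narrowly only once scaled to CPM. Neither passed the test, and the cause was not tested.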

How the results depend on the processing

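The number of 320 sham-only genes stayed within 1.5 times with minimums of 2 or 5 counts, at most 1 NTY count, 0.3 CPM in each sham library, or protein-coding genes alone (228). It was 113 with a minimum of 10 counts and ranged from 427 to 702 without 1 library.

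DESeq2 called 1213 genes in primordial follicles where edgeR called 1, 703 in primary follicles and 29 in MII oocytes where edgeR called 0. Of the 320 genes it called 17 and 9 where edgeR called 0. In primordial follicles RLE normalization gave 2 calls and the fit of only the 2 groups 6, and leaving out 1 library gave 0 to 3. Leaving out 1 library gave 0 to 0 calls in primary follicles, in MII oocytes and among the 320 genes. The cause was not tested.

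RLE normalization moved the median log2 fold change of all genes by 0.29 in primary follicles. Of 120 recomputed log2 fold changes of 12 named genes, 113 kept their sign. Fbn1 in primordial follicles was at 0.0253 with RLE and with DESeq2, and Atxn7l1 there at -0.34 with both. With the replicate block Mtch1 was at 0.31 in primordial and -0.10 in primary follicles, and Gm49320 at -0.18 in primordial follicles. Sizes also moved where the sign was kept. In primordial follicles, for example, Nr2f2 was at 1.66 with RLE and with DESeq2 in place of 0.61. Clpb was there at -1.79 with the replicate block in place of -3.24.

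The replicate block moved the median log2 fold change of all genes to 0.39 in primordial and -0.75 in primary follicles, and that of the 108 sham-only genes tested to 1.05 and -1.18. With the replicate block edgeR called 1 gene in primordial follicles, 0 in primary follicles, 0 in MII oocytes and 0 of the 320 genes at either follicle stage. Replicate numbers were not taken as pairs. The deviations of equally numbered sham and NTY libraries correlated at 0.0370 in primordial follicles, -0.0127 in primary follicles and -0.0101 in MII oocytes on average.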
